A study of Homo sapiens with 8 samples.

Results

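The blood-lineage genes SPI1, CEBPB, CD68, CD3D and MLLT3 were followed in K562 cells given a plant extract. They were found by gene name in the deposited expression table, where they make up 5 of 1950 listed genes. The extract group holds 4 libraries of cells given an extract of Caulis Polygoni Multiflori, the stem of a plant used in Chinese medicine, at 80 µg/mL for 3 days. The control group holds 4 libraries of cells without the extract, and no time in culture is given for them. All 8 libraries came from K562, an established human chronic myeloid leukemia line with erythroid and megakaryocytic features, so every value concerns a single leukemia line. The series title asks about megakaryocyte and platelet formation and names PI3K/Akt and MEK/ERK signaling. Extract libraries are numbered 1 to 4 and control libraries 2 to 5, as in their titles.

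Blood lineages are set by transcription factors that act together and against each other. PU.1, the ETS-family factor encoded by SPI1, drives monocyte, granulocyte and B-cell genes and is antagonistic to GATA1, the factor of red cells and megakaryocytes. C/EBP beta, encoded by CEBPB, is a leucine-zipper factor active in monocytes, macrophages and emergency granulocyte production. CD68 is a heavily glycosylated protein of lysosomes and endosomes used as a macrophage marker, and CD3D encodes the delta chain of the CD3 complex that carries the T-cell receptor signal. MLLT3, also called AF9, reads acylated histones, belongs to the super elongation complex, is a fusion partner of KMT2A in leukemia and is known to maintain human blood stem cells.

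All 5 genes had less RNA with the extract. In limma on log2(value + 1), fitted over the 750 listed genes that reached 1 in 4 or more of the libraries, 5 of the 5 genes passed as lower at an adjusted p under 0.05. The background was high: 56.0% of the 750 tested genes were called lower and 26.8% higher. The authors had already chosen the listed genes for a difference of at least 1.5-fold between these same libraries. The 5 genes were also chosen with their direction known, so their shared fall is a description and no independent evidence. In each of the 5 genes all 4 extract libraries lay below all 4 control libraries, which was so for 45.9% of the tested genes. An exact two-sided permutation test of the difference of means over 4 against 4 libraries gave p = 0.0286 for each gene, the smallest it can give over 70 arrangements. In bulk RNA, fewer cells expressing a gene and less RNA per cell cannot be told apart. The labels do not say whether the libraries are separate cultures, so the p-values describe library-to-library spread that may be purely technical.

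**Figure D1:**
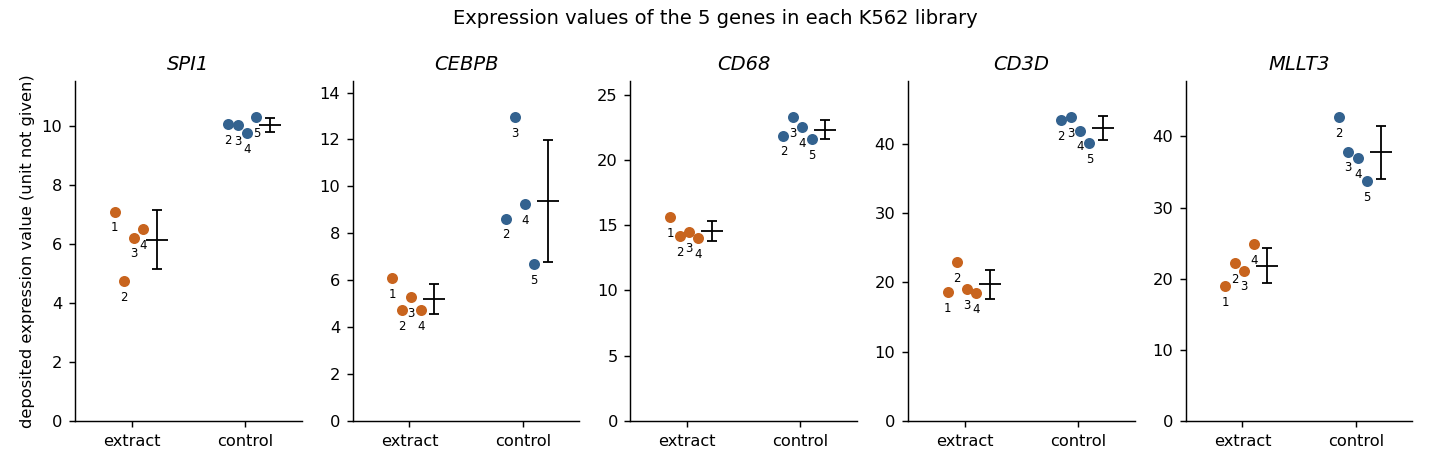
Deposited expression value (unit not given) of each gene in the 4 extract libraries, on the left of each panel, and the 4 control libraries, on the right; each point is 1 library with its number, and the bars give the mean and SD. In every panel the extract points lie below the control points; the gap is widest for CD3D (18.5 to 22.87 against 40.05 to 43.78) and narrowest for CEBPB (4.72 to 6.09 against 6.7 to 12.94).

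SPI1 (ENSG00000066336, chromosome 11, 47354860 to 47378576, minus strand, GRCh38, GENCODE 29) is a protein-coding gene whose coding transcripts have 2 to 5 exons. Its expression value was 7.09, 4.75, 6.21 and 6.5 in extract libraries 1, 2, 3 and 4, against 10.05, 10.03, 9.74 and 10.28 in control libraries 2, 3, 4 and 5. The control libraries were nearly level, while extract 2 lay below the other extract libraries. The mean was 6.14 ± 0.995 with the extract and 10.0 ± 0.221 in control (SD, n = 4 each), a ratio of 0.612. The log2 change was −0.64 (SE 0.107, 95% interval −0.88 to −0.39), with a limma adjusted p of 0.00108. No other annotated gene overlaps SPI1, and the nearest coding gene, MYBPC3, was not in the table.

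CEBPB (ENSG00000172216, chromosome 20, 50190734 to 50192689, plus strand) has a single exon of 1956 bases. Extract libraries 1, 2, 3 and 4 had 6.09, 4.72, 5.28 and 4.74, against 8.63, 12.94, 9.24 and 6.7 in control libraries 2, 3, 4 and 5. The controls were uneven, with control 3 high and control 5 low, and control 5 lay only 0.61 above the highest extract library. The means were 5.21 ± 0.643 with the extract and 9.38 ± 2.61 in control (SD, n = 4 each), a ratio of 0.555. The log2 change of −0.71 had the widest interval of the 5 genes (SE 0.173, 95% interval −1.11 to −0.32; limma adjusted p = 0.00647). The control SD was 27.8% of the mean, and 71.7% of tested genes had a smaller relative spread in control. The annotation places CEBPB-AS1 over CEBPB on the other strand, and no source used here says whether the libraries kept strand, so reads from the pair cannot be told apart.

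CD68 (ENSG00000129226, chromosome 17, 7579467 to 7582113, plus strand) had 15.64, 14.13, 14.45 and 13.99 in extract libraries 1, 2, 3 and 4, against 21.86, 23.25, 22.51 and 21.6 in control libraries 2, 3, 4 and 5. Both groups were tight, and the lowest control library was 5.96 above the highest extract library. Means of 14.6 ± 0.750 with the extract and 22.3 ± 0.737 in control (SD, n = 4 each) gave a ratio of 0.652 and a log2 change of −0.58 (SE 0.0526, 95% interval −0.71 to −0.46; limma adjusted p = 4.29e-05). This was the smallest fall and the narrowest interval among the 5 genes. Its log2 fold change in the authors' deposited table was −0.61, just past the smallest absolute value listed, 0.585. The noncoding genes AC016876.2, on the same strand, and AC016876.1, on the other, overlap CD68 and were not in the table. The table holds only genes chosen for a difference, so their absence does not show that they were silent. Their reads may not be separable from those of CD68.

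CD3D (ENSG00000167286, chromosome 11, 118338954 to 118342744, minus strand) had 18.58, 22.87, 19 and 18.5 in extract libraries 1, 2, 3 and 4, against 43.4, 43.78, 41.88 and 40.05 in control libraries 2, 3, 4 and 5. The groups were far apart, with 17.18 between the nearest libraries, and extract 2 stood above the other extract libraries. The mean was 19.7 ± 2.10 with the extract and 42.3 ± 1.70 in control (SD, n = 4 each), a ratio of 0.467. The log2 change was −1.07 (SE 0.0737, 95% interval −1.24 to −0.90; limma adjusted p = 1.12e-05), and 5.73% of tested genes had a larger fall. CD3G, the neighbouring gene of the same complex, and CD3E were not in the table.

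MLLT3 (ENSG00000171843, chromosome 9, 20341665 to 20622543, minus strand) spans 280.879 kb, and its 4 coding transcripts have 7 to 11 exons. Extract libraries 1, 2, 3 and 4 had 19.01, 22.23, 21.13 and 24.91, against 42.66, 37.87, 36.97 and 33.66 in control libraries 2, 3, 4 and 5. Both groups were moderately spread, with extract 4 and control 5 nearest to each other. The mean was 21.8 ± 2.46 with the extract and 37.8 ± 3.72 in control (SD, n = 4 each), a ratio of 0.577. The log2 change was −0.77 (SE 0.0955, 95% interval −0.99 to −0.55), with a limma adjusted p of 0.000248.

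No order of the sizes of the 5 falls passed a test. On the log2(value + 1) scale the change was −1.07 for CD3D, −0.77 for MLLT3, −0.71 for CEBPB, −0.64 for SPI1 and −0.58 for CD68, against a median of −0.50 over all 750 tested genes. That median includes genes that rose. Over the tested genes called lower the median was −0.66, and SPI1 and CD68 fell less than that. The order depends on the scale: by the log2 ratio of means CEBPB (−0.85) fell more than MLLT3 (−0.79). The interval of CD3D did not overlap those of SPI1 and CD68, while the intervals of the other 4 genes overlapped one another. Separate intervals do not take into account that the genes were measured in the same libraries. A comparison of the changes themselves, added after the values were seen, used an exact two-sided permutation test of the within-library log2 ratio for each of 10 pairs of genes. The log2 ratio of CD68 to CD3D averaged −0.41 ± 0.177 with the extract and −0.89 ± 0.0445 in control (SD, n = 4 each), without overlap. That pair gave exact p = 0.0286, which is the smallest possible, and 0.286 adjusted over the 10 pairs. The change of CD3D minus that of MLLT3 was −0.30 (exact p = 0.0571, 0.286 adjusted), and the remaining 8 pairs had larger p. Among these was SPI1 against CD3D, with overlapping groups (exact p = 0.143, 0.357 adjusted). No pair passed 0.05 after adjustment, and with 4 libraries a group none could have passed alone, which does not show that the 5 changes were alike.

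**Figure D2:**
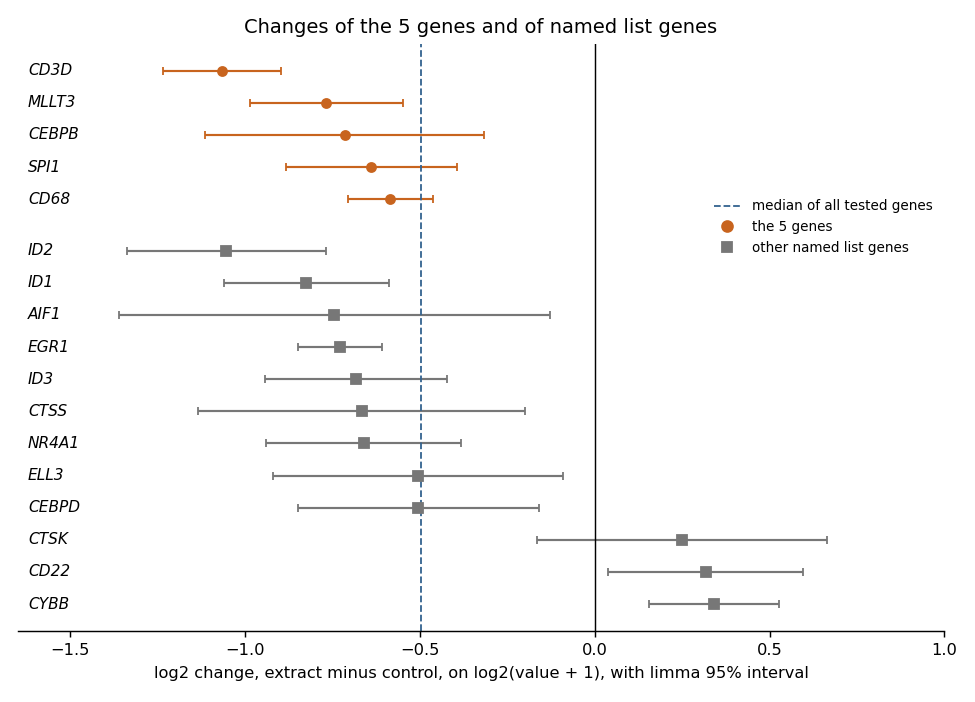
Log2 change, extract minus control, on log2(value + 1) with its limma 95% interval, for the 5 genes (circles) and for other tested genes of the lists that are named in the text (squares); the dashed line is the median of the 750 tested genes, −0.50. The circles run from −1.07 for CD3D to −0.58 for CD68 and none of their intervals reaches 0, while CYBB, CD22 and CTSK lie above 0 and the interval of CTSK includes 0.

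Median centring of each library, which moved every change by 0.27 on the log2 scale, was run on the tested genes, and the changes relative to that shift were −0.80 for CD3D, −0.50 for MLLT3, −0.45 for CEBPB, −0.37 for SPI1 and −0.32 for CD68. CEBPB then missed the threshold, with a limma adjusted p of 0.0543. Quantile normalization gave −0.49 for CD3D, −0.48 for CEBPB, −0.39 for SPI1, −0.18 for MLLT3 and −0.17 for CD68, so CD3D was then level with CEBPB, and MLLT3 missed the threshold with a limma adjusted p of 0.155. Of the 750 tested genes 420 were called lower and 201 higher as deposited, against 241 lower and 228 higher with median centring and 251 lower and 222 higher with quantile normalization. Both scalings used genes that were listed for being changed. The p-values were also adjusted for the 60664 genes of the authors' own family, with ranks taken among the 750 tested genes only. Genes outside the 750 have no p-value in this fit, so these adjusted p-values are upper bounds. By them 3 of the 5 genes stayed called lower, CD68, CD3D and MLLT3, against 16.3% of the tested genes. SPI1 (limma adjusted p = 0.0871) and CEBPB (limma adjusted p = 0.523) did not stay called.

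**Figure D3:**
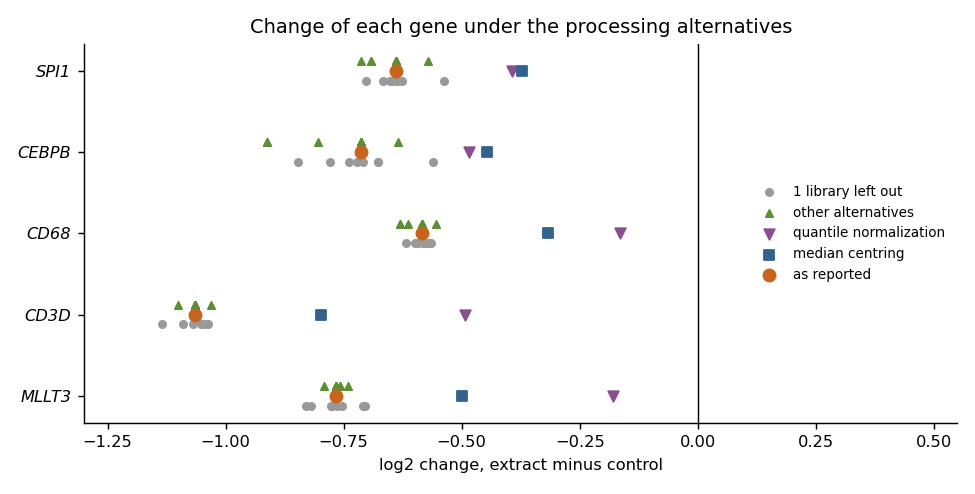
Log2 change of each gene, extract minus control, as reported (large circles) and under the processing alternatives (small symbols; grey circles leave out 1 library). Every symbol lies below 0, and the 2 rescalings, median centring and quantile normalization, lie nearest to 0, down to −0.17 for CD68 and −0.18 for MLLT3.

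The fold change that the authors deposited was close to the ratio of the library means for 4 of the genes and not for CD3D. In the authors' deposited table the log2 fold change was −0.78 for SPI1, −0.82 for CEBPB, −0.61 for CD68 and −0.69 for MLLT3. The log2 ratio of means was −0.71, −0.85, −0.62 and −0.79 for the same genes in that order. For CD3D the authors' deposited table gave −0.66, against −1.10 for the ratio of means, a difference of 0.44. A difference at least that large occurred in 4.80% of the 750 tested genes, whose median absolute difference was 0.0505. The adjusted p-values in the authors' deposited table were 1.58e-19 for CD68, 2.07e-17 for SPI1, 4.62e-17 for MLLT3, 1.63e-14 for CEBPB and 3.69e-08 for CD3D. CD3D was thus last of the 5 by the authors' p-value and first by limma on the deposited values. The tool behind the deposited fold changes is not given in the sources used here.

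**Figure D4:**
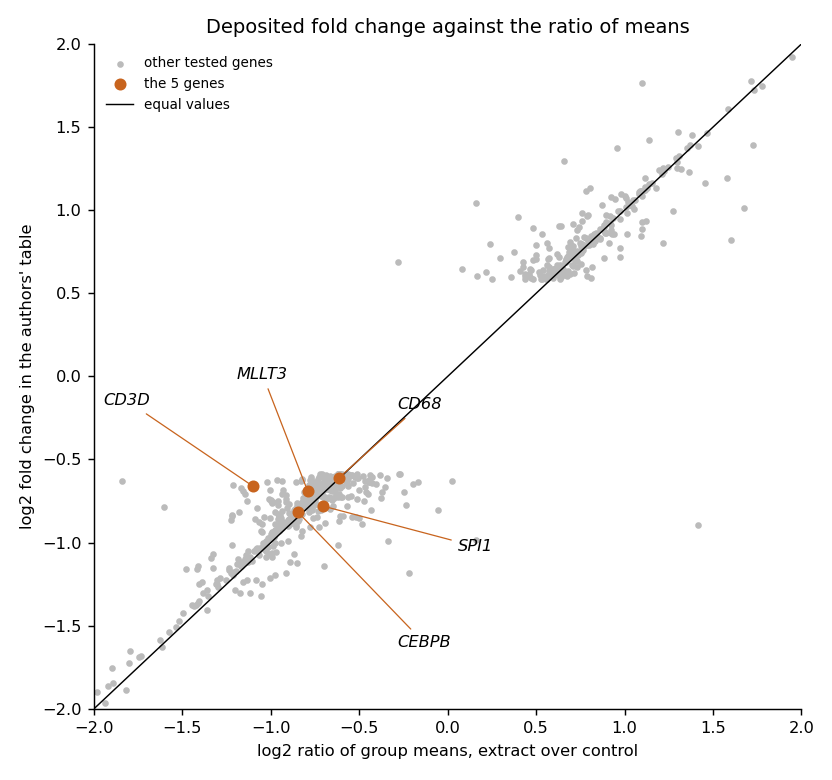
Log2 fold change in the authors' deposited table against the log2 ratio of group means, extract over control, for the 750 tested genes (26 lie outside the axes); the line marks equal values. SPI1, CEBPB, CD68 and MLLT3 lie near the line, and CD3D lies 0.44 above it.

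Within the groups the 5 genes did not move as a block. Across the 10 pairs of genes, the Pearson correlation of log2 values over all 8 libraries was between 0.79 and 0.97, which the difference between groups sets. After removal of the group means the correlations over the same 8 libraries were between −0.90 and 0.80. SPI1 and CD3D were opposed (r = −0.90, Spearman rho = −0.90), since extract 2 had the lowest SPI1 and the highest CD3D. Without extract 2 their r was −0.63, and without the 2 libraries farthest from the median of SPI1, extract 1 and extract 2, it was −0.67. CEBPB and CD68 varied together (r = 0.80, rho = 0.88), with r = 0.98 without control 3 and control 5. These values share their libraries and describe a few points each.

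The genes most like each member were taken from 528 named tested genes, by the Pearson correlation of log2 values over 8 libraries. Over all 8 libraries, where the group difference dominates, they were NAA80 and ZNF551 for SPI1 (r = 0.98 and 0.97), BMX and LINC01311 for CD68 (both r = 0.99), SNCG and CA8 for CD3D (both r = 0.99) and ZNF467 and CCDC61 for MLLT3 (r = 0.98 and 0.97). BMX, a TEC-family kinase gene, averaged 16.6 ± 0.681 with the extract and 28.8 ± 1.66 in control. SNCG, the gamma-synuclein gene, averaged 75.8 ± 2.15 with the extract and 122.7 ± 4.10 in control (SD, n = 4 each). By deviations from the group means the closest genes were PINK1-AS and BCAS1 for SPI1 (r = 0.94 and 0.91), FBXL8 and CATSPERZ for CD68 (both r = 0.90), TYMP and CLCN4 for CD3D (r = 0.97 and 0.91), and H2AC12 and SDHAF4 for MLLT3 (r = 0.90 and 0.82). PINK1-AS was higher with the extract (1.52 ± 0.208, against 1.01 ± 0.0718 in control, limma adjusted p = 0.0127), while SPI1 was lower. Each r given here is among the highest of 528 over 8 libraries, so its size is partly set by the choice, and none was tested.

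For CEBPB, HES4 led by both measures. HES4, a helix-loop-helix repressor gene, had r = 0.98 over all libraries and 0.97 for the deviations, SLC25A29, a mitochondrial carrier gene, had 0.97 over all libraries, and KRT10, a keratin gene, had 0.96 for the deviations. HES4 had 5.85, 4.6, 5.44 and 4.7 in extract libraries 1, 2, 3 and 4, against 11.23, 14.22, 11.76 and 8.1 in control libraries 2, 3, 4 and 5. KRT10 averaged 16.5 ± 0.713 with the extract and 36.6 ± 5.59 in control (SD, n = 4 each). All 4 genes were highest in control 3 and lowest among controls in control 5. HES4, SLC25A29 and KRT10 were picked for likeness to CEBPB over these same libraries, so the shared pattern follows largely from that choice. In control 3 CEBPB stood at 138% of its control mean, HES4 at 126%, SLC25A29 at 144% and KRT10 at 121%, and in control 5 at 71.4%, 71.5%, 75.8% and 85.2%. CEBPB remained called with either of these 2 libraries left out: its log2 change was −0.56 without control 3 (limma adjusted p = 0.00764) and −0.85 without control 5 (limma adjusted p = 0.00229).

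**Figure D5:**
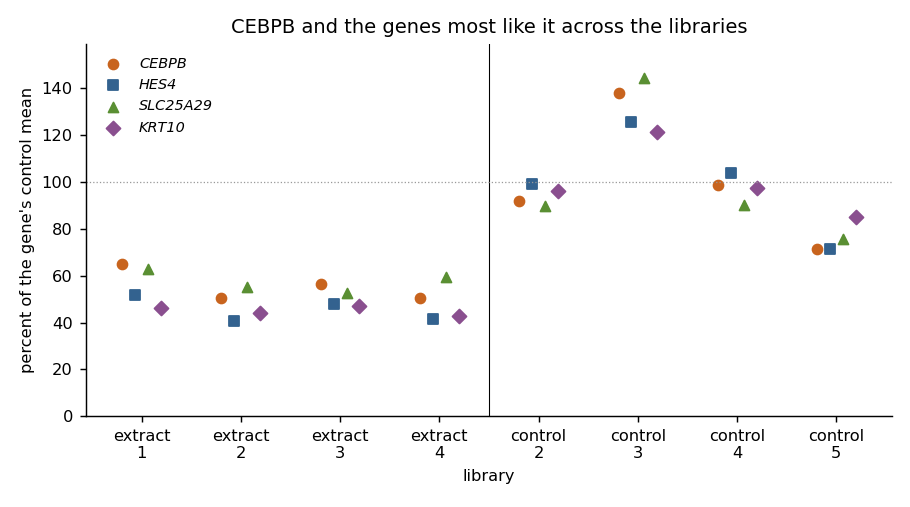
Expression value of CEBPB and of the 3 genes most like it in each library, as a percent of the mean of the 4 control libraries of that gene; extract libraries are left of the line and control libraries right of it. All 4 genes peak in control 3 (121% to 144%) and are lowest among the controls in control 5 (71.4% to 85.2%). The 3 genes were picked for likeness to CEBPB over these libraries, so the shared pattern follows largely from that choice.

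Promoter sequence was examined because SPI1 and CEBPB encode DNA-binding factors and the 5 genes fell together. RefSeq windows (GRCh38.p14) of 300 bases, from 250 before to 50 after the annotated start, were matched for CEBPB, CD68, CD3D and MLLT3, and not for SPI1. Both strands were searched for GAGGAA, the core bound by PU.1 and other ETS factors, and for TTGCNNAA, a form bound by C/EBP factors. The third motif searched, for GATA1 and its relatives, was AGATAA, which none of the 5 windows held. The motifs do not overlap one another in these windows. GAGGAA occurred in 27.9% of 35116 windows of the same length, TTGCNNAA in 10.5% and AGATAA in 10.3%. CD68 held GAGGAA and TTGCNNAA once each and CD3D held GAGGAA once, all on the strand opposite to the gene. No match was found in the MLLT3 window or in either of the 2 CEBPB windows, whose GC content was 77.0% and 76.7% against a median of 58.7% over all windows. The 30 bases around each match are printed 5′ to 3′ along the gene's strand, with the match in capitals. No other match was found in the searched windows, and the rest of these genes was not searched. The matches begin 48 and 13 bases before the RefSeq start used for the CD68 window and 18 bases before that used for the CD3D window. The GENCODE start of each gene lies further upstream, so these matches fall inside the GENCODE spans given above for CD68 and CD3D. A match of these letters is a description and no binding was measured.
CD68, ETS core, chr17:7579578-7579607, plus strand: tgagactttcatTTCCTCctttccaagaga
CD68, C/EBP form, chr17:7579614-7579643, plus strand: agggagcagggTTGAGCAActggtgcagac
CD3D, ETS core, chr11:118342706-118342735, minus strand: gacatcttctagTTCCTCccccactctcct

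Other genes of the same pathways and cell types were taken from 8 lists, which together hold 205 genes besides the 5. Of these, 17 were in the deposited table and 13 were tested, with 10 called lower, 2 called higher and 1 not called. Over all 750 tested genes 56.0% were called lower and 26.8% higher, so these counts say nothing particular of the lists. The many list genes outside the table were not analysed here, so none of the lists can be read as a whole. The lists show which relatives of SPI1, CEBPB, CD68, CD3D and MLLT3 were listed beside them.

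Among myeloid transcription factors, SPI1 and CEBPB had 4 of 19 relatives in the table and 3 tested. All 3 fell, where 56.0% of all tested genes were called lower. The median log2 change of the 3 was −0.66, against −0.50 over all tested genes and −0.66 over the tested genes called lower. CEBPD, which encodes C/EBP delta, had 3.37, 2.57, 2.19 and 3.45 in extract libraries 1, 2, 3 and 4, against 4.84, 5.29, 4.38 and 3.53 in control libraries 2, 3, 4 and 5. Its groups did not overlap but nearly touched, and its log2 change was −0.50 (limma adjusted p = 0.0157). CEBPD missed the threshold with median centring (limma adjusted p = 0.2), with quantile normalization (limma adjusted p = 0.203) and over the authors' family. EGR1, a growth-response factor with a role in monocyte development, was at 21.18 to 22.99 with the extract and 35.51 to 39.84 in control, and its call was lost with quantile normalization (limma adjusted p = 0.0561). NR4A1, an orphan nuclear receptor gene of monocytes, averaged 1.07 ± 0.249 with the extract and 2.26 ± 0.331 in control (SD, n = 4 each). Its log2 change was −0.66 (limma adjusted p = 0.00172), a call lost over the authors' family (upper bound 0.139). SPIB, the closest relative of SPI1 in the list, was below the filter, at 0.32 to 1.17 with the extract and 0.27 to 1.23 in control, with overlapping groups.

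Of 34 granulocyte, monocyte and macrophage genes besides SPI1 and CD68, 2 were listed, and they differed in direction. CYBB, the heme-binding subunit of the phagocyte NADPH oxidase and a known PU.1 target, rose: it had 1.86, 1.67, 1.87 and 1.9 in extract libraries 1, 2, 3 and 4, against 1.16 to 1.35 in the 4 control libraries. The groups did not overlap, and the log2 change was 0.34 (limma adjusted p = 0.00569), a call lost over the authors' family (upper bound 0.460). CYBB was the 1 listed gene among 25 PU.1 targets other than CD68, so the targets listed beside SPI1, CYBB and CD68, went in opposite directions. AIF1, a macrophage calcium-binding protein gene, averaged 2.94 ± 1.36 with the extract and 5.48 ± 1.55 in control (SD, n = 4 each), with overlapping groups and a limma adjusted p of 0.0317. AIF1 missed the threshold when extract 2, extract 3, control 2, control 4 or control 5 was left out, and its limma adjusted p ran from 0.00868 to 0.0781 across the leave-outs. Its call was also lost with no filter (limma adjusted p = 0.0538), median centring (0.135) and quantile normalization (0.114), and over the authors' family.

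CD68 had 2 further listed genes among 29 lysosome and endosome genes. CTSS, the cathepsin S gene of antigen-presenting cells, averaged 2.86 ± 0.895 with the extract and 5.08 ± 1.14 in control (SD, n = 4 each; limma adjusted p = 0.0174), and its groups overlapped between 3.62 and 3.69. With median centring CTSS missed the threshold (adjusted p = 0.111 by limma), as it did with quantile normalization (0.103) and over the authors' family. CTSK, the cathepsin K gene, averaged 1.45 ± 0.482 with the extract and 1.06 ± 0.346 in control and was not called (limma adjusted p = 0.212). With median centring CTSK was called higher, with a log2 change of 0.52 and a limma adjusted p of 0.0341.

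Few genes of the lymphoid lists besides CD3D were in the deposited table, which holds only genes that the authors chose for a difference. Of 35 T-cell genes 2 were listed, both below the filter. CD7 was at 0 to 0.31 with the extract and 0.12 to 0.73 in control, and TRBC1, a T-cell receptor constant gene nearly identical to TRBC2, was at 0.36 to 0.58 with the extract and 0.63 to 1.56 in control, without overlap. Fitted with no filter, the log2 change was −0.49 for TRBC1 (limma adjusted p = 0.0338) and −0.32 for CD7 (limma adjusted p = 0.0933). From the list of 27 B-cell and NK-cell genes, CD22, an inhibitory receptor gene of B cells, averaged 4.54 ± 0.810 with the extract and 3.42 ± 0.340 in control (SD, n = 4 each; limma adjusted p = 0.0384). The groups of CD22 overlapped, and leaving out any of the same 5 libraries as for AIF1 ended its call (range of limma adjusted p 0.0221 to 0.0884). That call was also lost with no filter (limma adjusted p = 0.0584) and over the authors' family.

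Beside MLLT3, 4 of 34 stem and progenitor genes were listed and the 3 that passed the filter fell, where 56.0% of all tested genes were called lower. ID1, ID2 and ID3 encode proteins that block helix-loop-helix factors. ID1 was at 31.07 to 36.81 with the extract and 49.46 to 66.02 in control. ID2 averaged 2.75 ± 0.555 with the extract and 6.72 ± 0.439 in control, and ID3 averaged 9.44 ± 1.47 with the extract and 15.7 ± 1.62 in control (SD, n = 4 each). Their log2 changes were −0.82, −1.05 and −0.68. ID1 was no longer called with quantile normalization (log2 change −0.20, limma adjusted p = 0.0855). ID3 lost its call over the authors' family (limma adjusted p, upper bound 0.0858). HLF, a stem-cell factor, was below the filter, at 0.05 to 0.21 with the extract and 0.19 to 0.6 in control. Of 21 genes of the super elongation and DOT1L complexes, the partners of MLLT3, only ELL3 was listed. It was at 0.41 to 1.13 with the extract and 1.01 to 2.27 in control, with overlapping groups and a limma adjusted p of 0.0313. Leaving out extract 2, extract 4, control 3 or control 5 ended that call (range 0.0197 to 0.0746). The call of ELL3 was also lost with no filter (limma adjusted p = 0.0529), median centring (0.259) and quantile normalization (0.0858). It was lost over the authors' family too, and in the 6 libraries numbered 2, 3 and 4 with or without the replicate block.

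Per library, the listed values add up to 13114 to 13433 with the extract and 13629 to 14134 in control. The table is partial, so these sums say nothing of depth. Depth is unknown, and no counting error can be given. Of 10 markers of K562, such as globins and GATA1, only HBZ was in the table (mean 5097 with the extract and 2876 in control), and the others were not analysed here.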

How the data were processed

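RNA-seq of 8 K562 libraries was used, 4 with the extract and 4 controls. HISAT2, StringTie and GRCh38 are named, without version or role, per the submitters' processing notes. The authors deposited 1 expression value per gene and library with no stated unit, so levels of different genes were not compared. Per the file headers, the authors also deposited group means, a fold change (a ratio, extract over control), its log2 and a p-value with an adjusted p-value. These cover 1950 genes, each with p of 0.0499 or less and at least 1.5-fold. A family of 60664 genes turned the deposited p-values into whole ranks, within 0.02, in 100% of 1243 genes.

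Groups were compared with limma 3.58.1 (R 4.3.3; empirical Bayes with trend and robust options) on log2(value + 1), which understates the change of low genes. It was fitted over the 750 genes that reached 1 in 4 or more of the libraries and adjusted over them by Benjamini-Hochberg at 0.05. The step was tested on simulated data. Exact permutation tests used SciPy 1.17.1. Gene positions and overlaps came from GENCODE 29 and promoters from RefSeq (GRCh38.p14).

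Named genes were the 5 genes, every gene of 8 fixed lists found in the table, and for each of the 5 the 2 named tested genes with the highest correlation over 8 libraries and the 2 with the highest correlation of deviations from group means. A list gene that entered the fit and the counts is not reported here by name. The members, lists and tests were chosen with earlier results of these data known. Alternatives were other pseudocounts and filters, 2 rescalings, plain empirical Bayes, the authors' family, leaving out each library and a replicate block.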

Additional observations from a re-analysis of the deposited data

Results flagged for a closer look

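A single library stood well apart in 5 of the 84 sets of 4 that were examined, and about 4.2 such sets arise by chance. CD3D was high in extract 2 (22.87, the other extract libraries 18.5 to 19), and so was TYMP (3.26, the others 1.24 to 1.57). TYMP was picked as the closest gene to CD3D by deviations from the group means, so its high value there follows largely from that choice. Without extract 2 the log2 change of CD3D was −1.14. ID1 was low in control 5 (49.46, the other controls 64.23 to 66.02). HLF was high in control 4 (0.6, the others 0.19 to 0.24) and SPIB in control 5 (1.23, the others 0.27 to 0.42), both below the filter.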

How the results depend on the processing

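SPI1, CEBPB, CD68, CD3D and MLLT3 were lower with the extract under every alternative run, and CD68 and CD3D passed the threshold in each. Leaving out 1 library gave log2 changes of −0.70 to −0.54 for SPI1, −0.85 to −0.56 for CEBPB, −0.62 to −0.56 for CD68, −1.14 to −1.04 for CD3D and −0.83 to −0.71 for MLLT3, with limma adjusted p of at most 0.0183. Over the authors' family SPI1 (−0.64) and CEBPB (−0.71) lost their calls, which left 3 of the 5 genes. There the same p-values were adjusted for more genes with ranks among the tested genes only, which gives upper bounds. CEBPB also lost its call with median centring (−0.45) and MLLT3 with quantile normalization (−0.18); the cause was not tested.

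Of the other list genes, 10 were called lower and 2 higher. The lower count was 4 over the authors' family, with a filter of 5 and with quantile normalization, and 6 with median centring. Only EGR1, ID1, ID2 and ID3 were tested with the filter of 5, and all of them were called lower there. The higher count was 0 over the family and with the filter of 5, 1 with no filter, 3 with median centring, where CTSK was called, and 1 to 2 with 1 library left out. CYBB and CD22 were not tested with the filter of 5. The tested genes called were 420 lower and 201 higher, 122 and 45 over the family, and 182 and 71 with the filter of 5. With no filter, over all 1950 listed genes, 567 were called lower and 314 higher. The filters change how many genes are tested, so these counts are not shares. Lower calls numbered 241 with median centring and 251 with quantile normalization.

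Correlations of deviations between same-numbered libraries were small, at 0.075, 0.075 and 0.149 for numbers 2, 3 and 4. Each was the highest that its extract library had with any control. Control 2 was nearer to extract 1 (0.136), which has no same-numbered control. These values do not settle whether the numbers mark pairs. With a replicate block over the 6 libraries numbered 2, 3 and 4, the 5 genes kept their calls (331 tested genes called lower, and 1 other list gene higher). CYBB lost its call in that fit (limma adjusted p = 0.0835, against 0.0381 in the same 6 libraries without the block). That fit without the block, added after the data were seen, called 335 lower. Unknown depth limits what can be said of low genes.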
